A study of Mus musculus with 11 samples.

Results

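The 9 genes described here are the 4 Gprc5 receptors (Gprc5a, Gprc5b, Gprc5c and Gprc5d), the 3 retinoic acid receptors (Rara, Rarb and Rarg), the retinol transporter Stra6 and the retinoic acid carrier Crabp2. They were chosen by gene symbol: the 23 transcripts that carry one of these names were added up by gene, which gave 9 of the 24515 genes of the count table. Poly-A RNA of 11 mouse lung libraries had been sequenced: 3 ADC tumors, 3 ADN tumors and 5 normal lungs taken beside the tumors. Every mouse was Gprc5a-/- and every mouse had been injected with NNK, a nitrosamine carcinogen of tobacco, at 50 mg/kg 3 times a week for 8 weeks, so the deletion and the carcinogen are common to all groups, and no wild-type and no uninjected lung was analysed here. The tags ADC and ADN are not spelled out in the labels, which also do not give the age of the mice, and do not say which part of Gprc5a was deleted. Mouse m335, at 4 months after NNK, gave an ADC and an ADN tumor that share its normal lung. Mice m372 and m378, at 7 months, gave an ADC tumor each, and mice m368 (6 months) and m350 (7 months) an ADN tumor each.

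Retinol circulates bound to Rbp4, enters cells through Stra6, and is either stored as an ester by Lrat or oxidized by Rdh10 and the Aldh1a enzymes to retinoic acid. Crabp2 hands retinoic acid to the nuclear receptors Rara, Rarb and Rarg, which bind DNA together with retinoid X receptors, while Cyp26 enzymes break it down. The Gprc5 genes encode orphan class C receptors first described as induced by retinoic acid, and Gprc5a is known in mice as a lung tumor suppressor of the airway and alveolar epithelium.

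Mouse retinoic acid receptor genes each have a pair of main promoters, and the downstream one of each gene is known to be induced by retinoic acid. Estimated counts were also added up by transcript start, a step chosen after the data had been seen. The bases before the starts were searched on both strands for a direct repeat with 5 bases between its 2 arms. Retinoic acid receptor dimers are known to prefer this arrangement. An arm could be AGGTCA, to which nuclear receptors typically bind, or GGGTCA as the first of its variants, AGTTCA as the second or GGTTCA as the third. RefSeq windows of 300 bases around the start were held for 13 starts of 6 of the 9 genes (Gprc5b, Gprc5d, Stra6, Rara, Rarb and Rarg), 12 of them starts of the count table. The internal start of Rara at 98960471 and the upstream start of Rarb at 17082331 were not among them, so the bases before these starts were not searched. The repeat was in 1 of the 13, at the downstream start of Rarb, at positions -53 to -37 from the start, where it reads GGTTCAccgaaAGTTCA. Among 32851 windows of the same length it was in 32, or 0.0974%. A repeat with 2 bases between the arms was in none of the 13 windows and in 0.268% of all windows. The 250 bases before a start of each receptor gene are printed because the values of these starts are compared further on (RefSeq, GRCm38.p6, 5' to 3' on the strand of the gene). Capitals mark the arms of the repeat.

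Rarb downstream start, minus strand, chr14:16575477-16575726: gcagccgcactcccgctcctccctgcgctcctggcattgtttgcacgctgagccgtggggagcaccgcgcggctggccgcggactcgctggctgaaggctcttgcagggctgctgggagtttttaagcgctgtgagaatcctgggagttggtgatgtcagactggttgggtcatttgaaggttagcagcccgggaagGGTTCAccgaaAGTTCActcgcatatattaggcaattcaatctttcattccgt

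Rarg downstream start, minus strand, chr15:102246501-102246750: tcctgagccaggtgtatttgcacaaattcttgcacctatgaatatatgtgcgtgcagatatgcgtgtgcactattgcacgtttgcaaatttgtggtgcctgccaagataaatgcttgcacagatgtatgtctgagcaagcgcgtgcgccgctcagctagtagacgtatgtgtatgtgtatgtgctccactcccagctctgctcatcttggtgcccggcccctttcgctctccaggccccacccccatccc

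Rara upstream start, plus strand, chr11:98939461-98939710: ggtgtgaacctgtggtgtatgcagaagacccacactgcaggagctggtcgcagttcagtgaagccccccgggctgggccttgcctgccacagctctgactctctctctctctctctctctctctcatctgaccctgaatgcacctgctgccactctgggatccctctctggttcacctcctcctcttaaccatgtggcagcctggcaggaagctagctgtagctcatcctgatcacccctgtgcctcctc

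Of the 3 stretches, the one before Rarb holds the repeat, and no match says only that these letters are not in the other windows.

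Libraries held 19938822 to 46987587 counts. Levels are given in CPM (counts scaled to a common library total) on library sizes scaled by the trimmed mean of M values (TMM), fold changes are log2 values from the edgeR quasi-likelihood model, blocked by mouse, and a gene is called at a Benjamini-Hochberg adjusted p under 0.05 over all genes tested. Only mouse m335 gave both tumor kinds. In fitted differences of ADC and ADN tumors, the tumors of the other mice therefore enter relative to their own normal lungs. The surfactant genes and other alveolar type 2 markers summed to 38124 to 139637 CPM in tumors and 43529 to 58870 CPM in normal lungs, so lung epithelium was present throughout. Some libraries stood apart. The ADC tumor of mouse m335 had 38124 CPM of those markers, against at least 111133 CPM in every other tumor, and 455 CPM of T cell and thymus markers, against 29.2 to 58.8 CPM in the other tumors. The normal lung of mouse m335 held 720 CPM of skeletal muscle markers (10.9 to 138 CPM in the other normal lungs), that of mouse m368 held 9734 CPM of macrophage markers and 756 CPM of adipocyte markers, and that of mouse m372 held 960 CPM of T cell and thymus markers and 25555 CPM of club cell markers. The marker counts that follow are calls in tumors against normal lungs, where 7.91% of all genes tested were called as lower and 3.68% as higher. Endothelial markers were lower in tumors for 9 of 10 genes and summed to 791 to 1313 CPM in tumors and 3659 to 5785 CPM in normal lungs. Fibroblast markers were lower for 5 of 10 genes, with sums of 768 to 1384 CPM in tumors and 1555 to 2424 CPM in normal lungs. Among mesothelial markers 6 of 7 were lower, although the sum in the ADN tumor of mouse m368 (709 CPM) was above that of any normal lung (292 to 586 CPM). Alveolar type 1 markers were lower for 4 of 10 genes (2800 to 5563 CPM in tumors, 5112 to 7969 CPM in normal lungs), skeletal muscle markers for 7 of 9 (3.32 to 9 CPM in tumors, 10.9 to 720 CPM in normal lungs) and adipocyte markers for 4 of 8 (36.3 to 51.5 CPM in tumors, 95.8 to 756 CPM in normal lungs). In turn, 4 of 10 alveolar type 2 markers were higher, and none of the 8 club cell, 9 macrophage and 7 T cell and thymus genes tested was called. No marker was at 0 in every library. In tissue RNA, fewer cells of a type and less RNA per cell cannot be told apart.

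**Figure D1:**
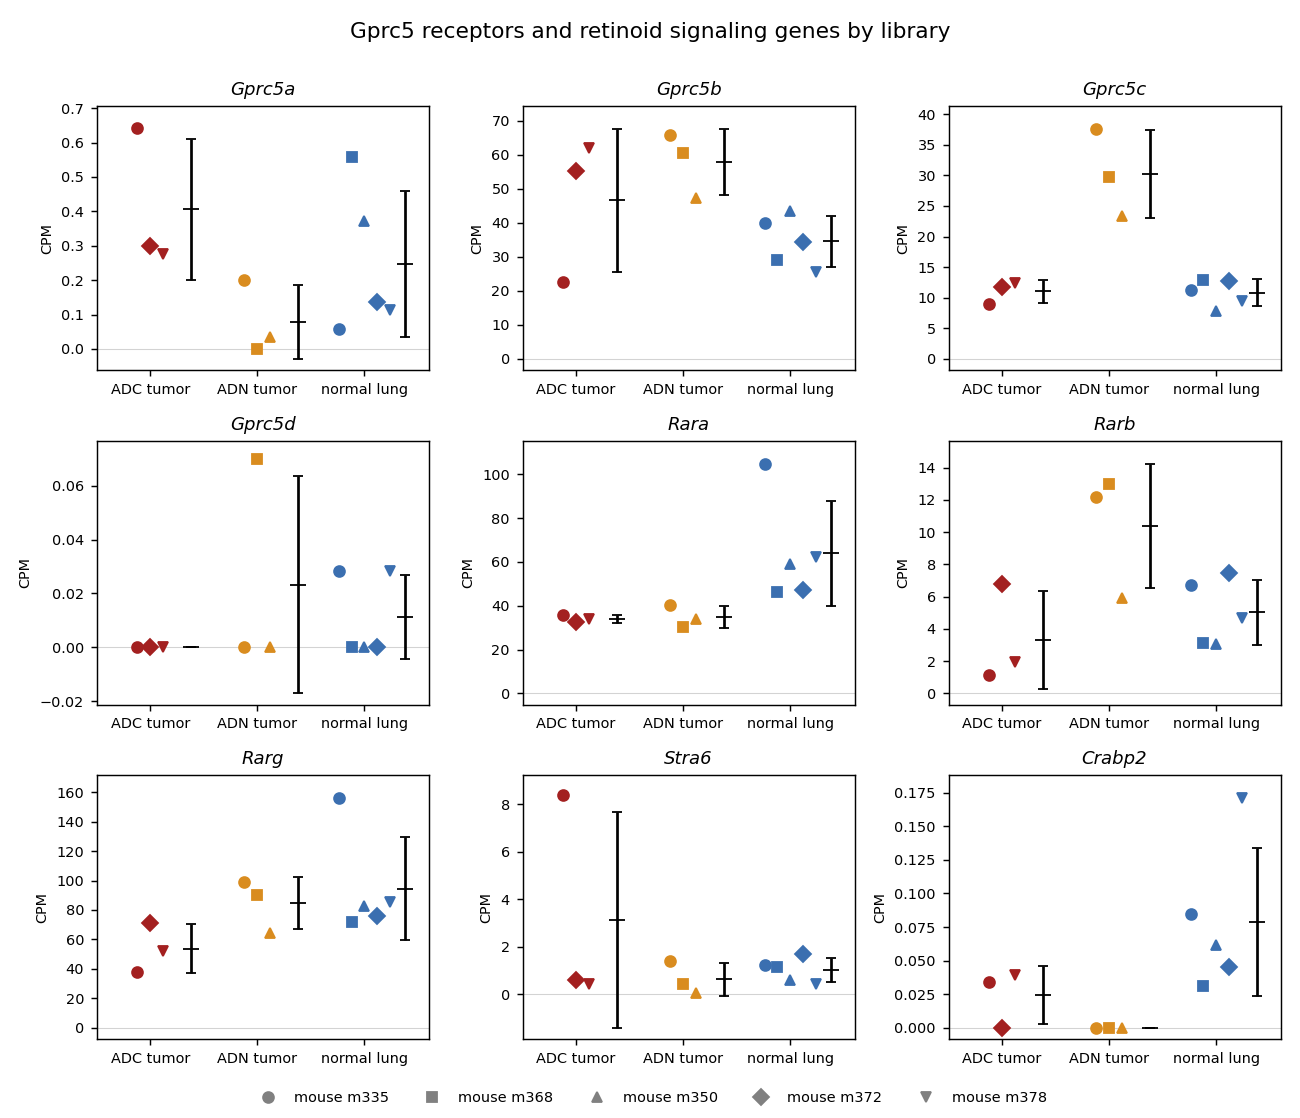
CPM of the 9 genes in each library, on linear axes, for ADC tumors, ADN tumors and normal lungs; each symbol is a mouse, and the bar beside each group is its mean with the SD (n = 3 ADC, 3 ADN and 5 normal). All 6 tumors lie below all 5 normal lungs for Rara (at most 40.2 against at least 46.2 CPM), and the 3 ADN tumors lie above all other libraries for Gprc5c (at least 23.3 CPM).

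Gprc5a (chromosome 6, 135065662 to 135084708, plus strand, GRCm38), the deleted gene, had 19, 13 and 7 counts in the ADC tumors of mice m335, m372 and m378. The ADN tumors of mice m335, m368 and m350 had 6, 0 and 1 counts. The normal lungs of mice m335, m368, m350, m372 and m378 had 2, 18, 12, 3 and 4 counts, so no library was above 0.634 CPM on its total. Every ADC tumor was above every ADN tumor, and the normal lungs overlapped both. The gene was below the filter for tumors against normal lungs. In the fit with 3 groups the difference of ADC and ADN tumors was 3.03 ± 1.70 (log2 fold change ± SE; edgeR adjusted p = 0.787), with a 95% interval of -0.87 to 6.94 and values of 2.25 to 6.38 over its alternatives. Among all genes tested, 5.78% had every ADC tumor above every ADN tumor.

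Per length, Rarg was the most abundant of the 9 genes and the mRNAs of Gprc5d and Crabp2 were close to undetected. In CPM per kilobase of transcript, the level of Rarg averaged 24.7 ± 8.08 in tumors and 33.9 ± 12.4 in normal lungs (SD, n = 6 and 5). Gprc5b followed in tumors with 11.9 ± 3.73, against 7.65 ± 1.65 in normal lungs, and Rara had 11.5 ± 1.29 in tumors and 21.0 ± 7.42 in normal lungs. The next genes were Gprc5c (5.78 ± 3.15 in tumors, 3.06 ± 0.584 in normal lungs), Rarb (2.20 ± 1.60 in tumors, 1.61 ± 0.655 in normal lungs) and Stra6 (0.686 ± 1.17 in tumors, 0.375 ± 0.180 in normal lungs). Gprc5a averaged 0.116 ± 0.111 in tumors and 0.119 ± 0.102 in normal lungs. In tumors, the levels of Gprc5b and Rara lay within each other's SD, and in normal lungs the range of Rara (15.4 to 33.6) overlapped that of Rarg (25.9 to 55.7).

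Gprc5c (chromosome 11, 114851532 to 114872617, plus strand), an orphan receptor of the same family, rose in ADN tumors. Its level was 8.89, 11.8 and 12.4 CPM in the ADC tumors of mice m335, m372 and m378. The ADN tumors of mice m335, m368 and m350 had 37.6, 29.8 and 23.3 CPM. In the normal lungs of mice m335, m368, m350, m372 and m378 it was 11.3, 12.9, 7.86, 12.7 and 9.44 CPM. The lowest ADN tumor was thus well above the highest normal lung, whereas the ADC tumors lay within the range of the normal lungs (7.86 to 12.9 CPM). ADN tumors exceeded normal lungs by 1.58 ± 0.26 on the log2 scale (edgeR adjusted p = 0.0129; 7.24% of all genes tested were called in this comparison, 2.58% as higher, and 9.15% had every ADN tumor above every normal lung). In edgeR it was the 1 of 7 members tested that was called in ADN tumors against normal lungs, whereas DESeq2 also called Rarb as higher and Rara as lower. DESeq2 called 3003 of the 15764 genes in that comparison, and edgeR 1141. Without the ADN tumor of mouse m335 the difference was 1.38 with an adjusted p of 0.157, and without the ADN tumor or the normal lung of mouse m350 it was 1.58 with adjusted p = 0.0644 and 0.0635. Over all alternatives the adjusted p lay between 3.07e-06 and 0.157. ADC tumors differed from the same normal lungs by -0.08 ± 0.26 (edgeR adjusted p = 0.915; 95% interval -0.69 to 0.53).

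In the fit blocked by mouse, the difference of Gprc5c between ADC and ADN tumors was -1.66 ± 0.33, with a 95% interval of -2.43 to -0.89 and no overlap between the tumors. Its unadjusted edgeR p was 0.00104 and its adjusted p 0.624, so it was not called. A single gene, Apoa1, named here after its values were seen, or 0.00634% of those tested, was called between ADC and ADN tumors. In that comparison 1048 genes had an unadjusted p under 0.05, and 4.33% had every ADC tumor below every ADN tumor. DESeq2, which called 136 genes in that comparison, gave Gprc5c -1.71 with an adjusted p of 0.00326. Over all alternatives the edgeR and DESeq2 values of this difference stayed between -1.84 and -1.39, with adjusted p between 0.00326 and 0.984. Against the normal lung of the same mouse, Gprc5c differed by 1.72, 1.21 and 1.56 in the ADN tumors of mice m335, m368 and m350. The ADC tumors of mice m335, m372 and m378 differed from their own lungs by -0.35, -0.11 and 0.40, so the 2 tumors of mouse m335 lay on opposite sides of their shared lung.

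Gprc5b (chromosome 7, 118972040 to 118995211, minus strand), another receptor of the family, was per length the most abundant Gprc5 gene in all groups. Its level was 22.7, 55.2 and 62.0 CPM in the ADC tumors of mice m335, m372 and m378, and 66.0, 60.6 and 47.3 CPM in the ADN tumors of mice m335, m368 and m350. Normal lungs had 40.0, 29.1, 43.6, 34.5 and 25.6 CPM in mice m335, m368, m350, m372 and m378. All tumors but the ADC tumor of mouse m335 were above every normal lung, and that tumor was below every normal lung. Tumors against normal lungs gave 0.62 ± 0.30 (edgeR adjusted p = 0.238; 95% interval -0.07 to 1.31), with 5 of 6 tumors above the lung of the same mouse. When that ADC tumor, the library low in alveolar type 2 markers, was left out, the difference was 0.82 with an adjusted p of 0.0131. Leaving out that tumor also brought Gprc5c under the threshold in tumors against normal lungs (1.01, adjusted p = 0.0396, against 0.84 ± 0.40 and 0.225 with it). Without that tumor 3377 genes were called in this comparison, against 1759 with all libraries. Over all alternatives the adjusted p lay between 0.0131 and 0.516 for Gprc5b and between 0.0396 and 0.451 for Gprc5c. Exons of Gprc5b overlap Iqck on the opposite strand, and without a stated strand setting their reads cannot be told apart.

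Gprc5d (chromosome 6, 135105991 to 135118283, minus strand), known from hair follicles and plasma cells, had 2 counts in 1 ADN tumor and 1 count in each of 2 normal lungs, and 0 in the other 8 libraries. At this depth no difference was detectable. Crabp2 (chromosome 3, 87948693 to 87953372, plus strand) had 1, 0 and 1 counts in the ADC tumors of mice m335, m372 and m378 and 0 in the 3 ADN tumors. In the normal lungs of the same 5 mice, in the order m335, m368, m350, m372 and m378, it had 3, 1, 2, 1 and 6 counts. The carrier was thus seen in every normal lung, at 13 counts in all, and in 2 tumors at 2 counts in all. Per total count the ratio of tumors to normal lungs was 0.115, with a 95% counting interval of 0.0126 to 0.507 that covers counting error only. Both genes were below the filter, so no test of them was made across the libraries.

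Rara was the one retinoic acid receptor called in tumors against normal lungs. Rara (chromosome 11, 98937696 to 98974942, plus strand) encodes the receptor that is widely expressed across tissues. It had 35.9, 32.4 and 33.8 CPM in the ADC tumors of mice m335, m372 and m378 and 40.2, 30.5 and 33.9 CPM in the ADN tumors of mice m335, m368 and m350. The normal lungs of mice m335, m368, m350, m372 and m378 had 105, 46.2, 59.0, 47.4 and 62.3 CPM. Every tumor was below every normal lung, and the tumors lay close together while the normal lung of mouse m335 was far above the other 4. Rara averaged 34.4 ± 3.35 CPM in tumors and 64.0 ± 24.1 CPM in normal lungs (SD, n = 6 and 5), and it fell by 0.91 on the log2 scale with an SE of 0.17 (edgeR adjusted p = 0.0115). It was lower than the lung of the same mouse in 6 of 6 tumors. Of the 6 members tested in this comparison it was the 1 called in edgeR and the 1 without overlap, where 11.6% of all 15175 genes tested were called, 7.91% were called as lower and 7.91% were lower without overlap. The median log2 fold change was -0.09 over the 6 members and -0.03 over all genes tested. The adjusted p of Rara stayed between 0.000225 and 0.05 (the largest just under the threshold before rounding) under all alternatives, with values between -1.10 and -0.71.

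The levels of Rara overlapped between the tumor kinds. ADC tumors differed from normal lungs by -0.95 ± 0.25 (edgeR adjusted p = 0.079) and ADN tumors by -0.87 ± 0.25 (adjusted p = 0.076), and these comparisons share the normal lungs. Neither was called on TMM library sizes, where 4.78% of the genes tested were called for ADC tumors against normal lungs. Both were called in edgeR on library totals (-1.14 with adjusted p = 0.0277 for ADC and -1.05 with 0.0311 for ADN tumors) and by DESeq2 (adjusted p = 0.0124 for ADC and 0.029 for ADN tumors). DESeq2 called 1863 genes for ADC and 3003 for ADN tumors against normal lungs, and edgeR on TMM sizes called 753 and 1141. With the mouse m335 ADC tumor left out, ADN tumors were also called in edgeR (adjusted p = 0.0389), where 1998 genes were called, against 1141 with all libraries. Over all alternatives the adjusted p lay between 0.0124 and 0.316 for ADC and between 0.029 and 0.383 for ADN tumors. The difference of ADC and ADN tumors was -0.08 ± 0.32 (adjusted p = 0.968), with a 95% interval of -0.81 to 0.65. Endothelial marker sums were lower in all 6 tumors, beside the fall of Rara, and their part in the result was not tested.

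**Figure D2:**
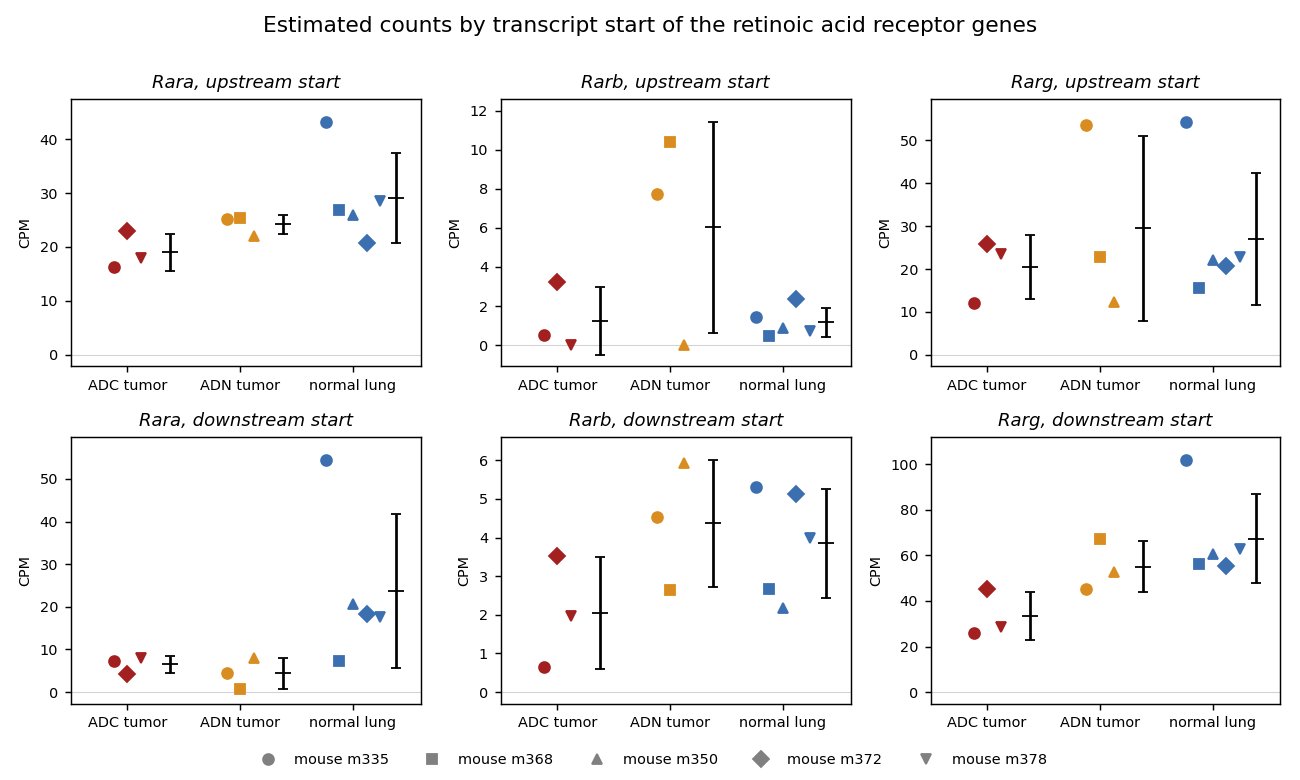
CPM by transcript start of Rara, Rarb and Rarg in each library, upstream start above and downstream start below, on linear axes; symbols are mice and bars are the group mean with the SD (n = 3 ADC, 3 ADN and 5 normal). At the downstream start of Rara the tumors lie between 0.733 and 8.09 CPM and the normal lungs between 7.21 and 54.5 CPM.

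By transcript start, in a fit chosen after the data had been seen, the fitted difference of tumors from normal lungs was negative at every start of Rara. The 1 called was the internal start at position 98960471. This start had 7.27, 4.24 and 8.09 CPM in the ADC tumors of mice m335, m372 and m378 and 4.42, 0.733 and 7.96 CPM in the ADN tumors of mice m335, m368 and m350. In the normal lungs of mice m335, m368, m350, m372 and m378 it had 54.5, 7.21, 20.7, 18.3 and 17.7 CPM. The groups overlapped through the normal lung of mouse m368, which was below 3 tumors. The start fell by 2.29 on the log2 scale with an SE of 0.38 (edgeR adjusted p = 0.00884, in a fit of 17603 starts of all genes in which 9.33% were called and 6.49% were called as lower). When the mouse m335 normal lung was left out, the difference was -1.93, with an adjusted p of 0.053, the highest over its alternatives (the lowest was 3.02e-07). Its share of all Rara counts averaged 15.7% ± 8.43 in tumors and 33.9% ± 13.3 in normal lungs (SD, n = 6 and 5). ADC tumors gave -1.96 ± 0.50 (adjusted p = 0.0954) and ADN tumors -2.67 ± 0.53 (adjusted p = 0.0353; 4.85% of starts were called for ADN tumors) against the normal lungs they share.

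At the upstream start of Rara at 98939711, whose promoter is printed above, the tumors had 16.2 to 25.3 CPM and the normal lungs 20.8 to 43.1 CPM. The difference of that start was -0.43 ± 0.23 (edgeR adjusted p = 0.298). The remaining starts of Rara, at 98937696 and 98937718, gave -0.79 ± 0.39 (adjusted p = 0.261) and -0.80 ± 0.58 (adjusted p = 0.457). At 98937696 tumors had 3.39 to 11.5 CPM and normal lungs 6.6 to 14.3 CPM. Both tumors of mouse m335 (ADC 11.5 and ADN 9.94 CPM) were above their lung (6.6 CPM) there, and every other tumor was below its own. At 98937718 tumors had 0.464 to 1.18 CPM and normal lungs 0.636 to 2.73 CPM. All values by start rest on estimated counts that the authors' quantification split among transcripts sharing exons, so the split itself is uncertain, and the difference between the starts was not tested.

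Rarb (chromosome 14, 16430840 to 17082331, minus strand), itself known as a classical target of retinoic acid receptors, had its 2 highest levels in ADN tumors and its 2 lowest in ADC tumors. Its level was 1.15, 6.76 and 1.97 CPM in the ADC tumors of mice m335, m372 and m378. The ADN tumors of mice m335, m368 and m350 had 12.2, 13.0 and 5.93 CPM, and the normal lungs of mice m335, m368, m350, m372 and m378 had 6.72, 3.14, 3.03, 7.49 and 4.69 CPM. Each ADN tumor was above the lung of its own mouse, by 0.86, 2.03 and 0.95 on the log2 scale, and each ADC tumor was below it, with differences of -2.48, -0.15 and -1.22. The ADC and ADN groups overlapped through the ADC tumor of mouse m372. ADC against ADN tumors gave -2.72 ± 0.67 (95% interval -4.25 to -1.19), an unadjusted edgeR p of 0.00334 and an adjusted p of 0.697. DESeq2 gave -2.77 with an adjusted p of 0.00543, and the alternatives ranged between -3.21 and -1.64 with adjusted p between 0.00543 and 1. The smallest difference, -1.64, was that without the mouse block. ADC tumors against normal lungs gave -1.28 ± 0.52 (adjusted p = 0.241), or -0.65 without the ADC tumor of mouse m335, and ADN tumors 1.44 ± 0.47 (adjusted p = 0.11, and 0.0211 by DESeq2). All tumors together gave 0.29 ± 0.65 (adjusted p = 0.828). Exons of Rarb overlap Top2b on the opposite strand.

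The downstream start of Rarb, behind the promoter with the repeat, had 0.642, 3.53 and 1.97 CPM in the ADC tumors of mice m335, m372 and m378. It had 4.52, 2.65 and 5.93 CPM in the ADN tumors of mice m335, m368 and m350, and 2.17 to 5.30 CPM in normal lungs. All groups overlapped, and tumors against normal lungs gave -0.32 ± 0.60 (edgeR adjusted p = 0.806). Its upstream start at 17082331 had 0.507, 3.23 and 0 CPM in the same ADC tumors and 7.73, 10.4 and 0 CPM in the same ADN tumors, against 0.466 to 2.36 CPM in normal lungs. The highest values at that start were thus found in the ADN tumors of mice m335 and m368, in which it held 63.1% and 79.6% of the Rarb counts. Its share was 44.1% and 47.8% in the ADC tumors of mice m335 and m372. It was 0% in the ADC tumor of mouse m378 and the ADN tumor of mouse m350, against 14.9% to 31.5% in normal lungs. The difference of tumors from normal lungs there was -0.09 ± 1.59 (adjusted p = 0.981).

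Rarg (chromosome 15, 102234938 to 102257522, minus strand), the receptor best known from skin and cartilage, had 38.0, 71.3 and 52.1 CPM in the ADC tumors of mice m335, m372 and m378. The ADN tumors of mice m335, m368 and m350 had 99.0, 90.1 and 64.7 CPM. The normal lungs of mice m335, m368, m350, m372 and m378 had 156, 71.7, 82.8, 75.9 and 85.7 CPM. The 3 ADC tumors were all below the lowest normal lung, though the ADC tumor of mouse m372 only just (13.1% of all genes had every ADC tumor below every normal lung), and the ADN tumors lay within or below the range of the normal lungs. ADC tumors against normal lungs gave -0.92 ± 0.37 (edgeR adjusted p = 0.238), ADN tumors -0.09 ± 0.35 (adjusted p = 0.909) and all tumors -0.47 ± 0.30 (adjusted p = 0.367). ADC against ADN tumors gave -0.83 ± 0.47 (adjusted p = 0.789; 95% interval -1.91 to 0.26). With the mouse m335 ADC tumor left out, the difference of Rarg was -0.20 between ADC and ADN tumors and -0.37 between ADC tumors and normal lungs. Its downstream start at 102246500 had 26.0 to 67.3 CPM in tumors and 55.2 to 102 CPM in normal lungs (-0.65 ± 0.29, adjusted p = 0.218). Its upstream start at 102257522 had 12.0 to 53.7 CPM in tumors and 15.5 to 54.2 CPM in normal lungs (-0.17 ± 0.39, adjusted p = 0.844). In mouse m335 the ADN tumor (53.7 CPM) and the normal lung (54.2 CPM) were the highest libraries at the upstream start.

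Stra6 (chromosome 9, 58129088 to 58153997, plus strand), which takes up retinol from Rbp4, had 248, 26 and 11 counts in the ADC tumors of mice m335, m372 and m378, or 8.39, 0.60 and 0.434 CPM. The ADN tumors of mice m335, m368 and m350 had 42, 13 and 1 counts, or 1.41, 0.454 and 0.0357 CPM. The normal lungs of mice m335, m368, m350, m372 and m378 had 1.25, 1.15, 0.619, 1.68 and 0.455 CPM. The ADC tumor of mouse m335 stood far above every other library. Tumors against normal lungs gave -0.80 ± 0.95 (edgeR adjusted p = 0.657), a value that turned to 0.87 without the mouse block. ADC against ADN tumors gave 2.17 ± 1.12 (adjusted p = 0.764; 95% interval -0.41 to 4.75), and 0.60 without the ADC tumor of mouse m335.

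Over the 11 libraries, the genes whose log2 CPM followed a member most closely among 14076 genes averaging 1 CPM or more differed from member to member. For Gprc5b they were Spry1, Pgap3 and Pigl (Pearson r = 0.96, 0.95 and 0.94), and for Gprc5c Slc16a12, Sdsl and Nudt14 (0.96, 0.94 and 0.93). For Rara they were Tmem184b, Mcam and Rusc2 (0.96 each), for Rarb 2010300C02Rik, Gtf2ird1 and Aasdh (0.95, 0.90 and 0.90), for Rarg Tns2, Cdc42ep4 and Slc9a3r2 (0.96, 0.95 and 0.94), and for Stra6 Cilp, Gramd3 and Ccr4 (0.97, 0.92 and 0.92). Among the members themselves the highest values were 0.71 for Gprc5c with Rarb, 0.71 for Rarb with Rarg and 0.68 for Rara with Rarg. The points share the 5 mice and the difference between tumor and normal lung, so these values only describe the libraries.

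**Figure D3:**
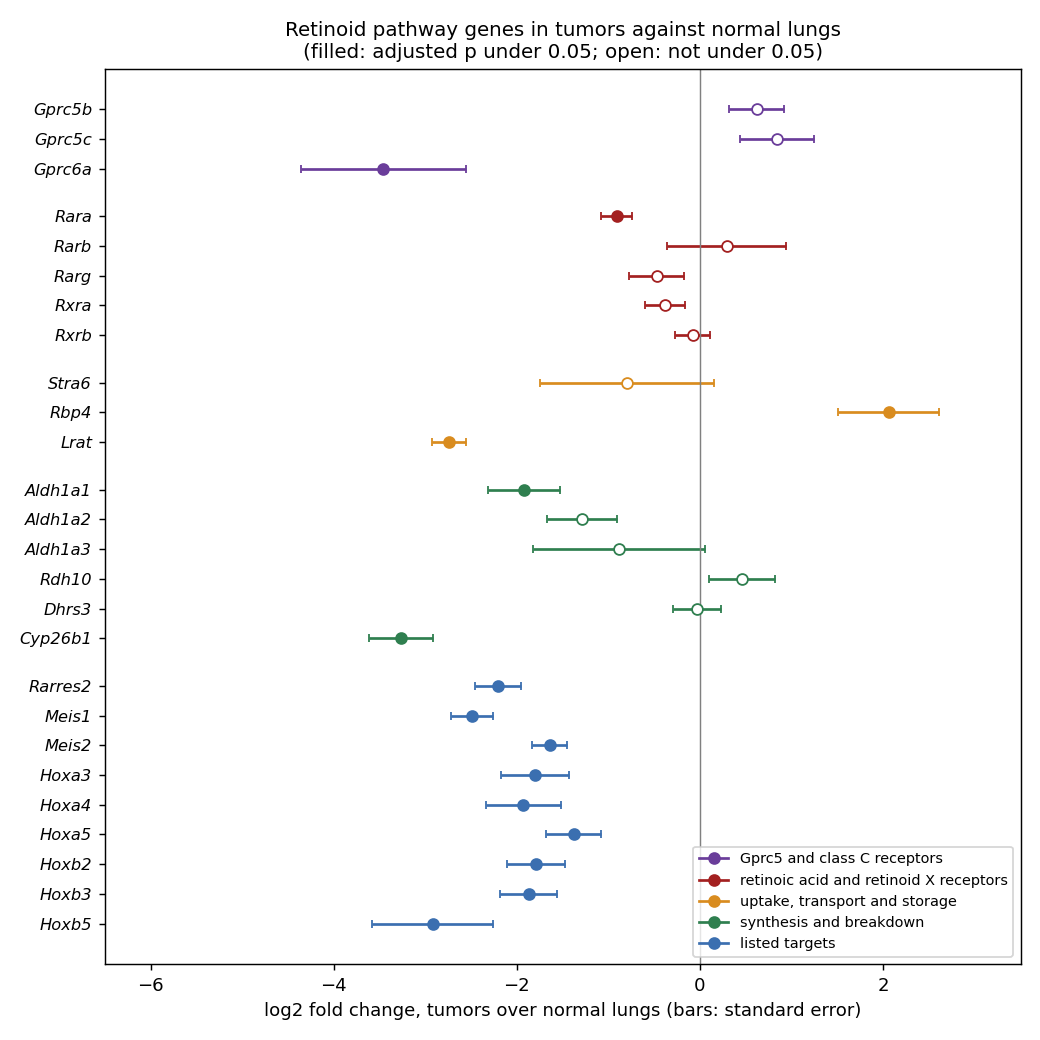
Log2 fold change of tumors over normal lungs for the members tested and genes named from the retinoid pathway, with the SE as bars; filled points have an adjusted p under 0.05 and open points do not, and colors mark the roles. Rara at -0.91 is the 1 filled point among the members. The points colored as listed targets, which were named because they were called, lie at or below -1.38. Dhrs3, also on the target list but colored under synthesis and breakdown, is at -0.03.

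Among the other genes of the pathway, Lrat of retinol storage, Cyp26b1 of retinoic acid breakdown and most listed targets fell in tumors. Of the coregulators tested 9 of 10 were not called, and of the synthesis genes 10 of 12. Of 71 genes on 6 pathway lists 49 passed the filter, of which 18 fell, 1 rose and 30 were not called, with a median of -0.97. Of all 15175 genes tested, 1201 (7.91%) fell and 558 (3.68%) rose, so 11.6% were called. The called shares of coregulators (10%) and synthesis genes (16.7%) were near that of all genes. The 18 became 22 on library totals, where the median of all genes was -0.22 rather than -0.03, and became between 10 and 21 when a library was left out (10 without either library of mouse m378, 21 without the mouse m335 ADC tumor). The same tumors had lower endothelial and fibroblast marker sums as given above, whose part in these results was not tested.

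Transport and storage genes split: of 7 tested, 2 fell and 1 rose, with a median of -0.69. Lrat, which esterifies retinol, had 8.99 to 29.7 CPM in tumors and 87.5 to 195 CPM in normal lungs (-2.74 ± 0.19, edgeR adjusted p = 0.000318). Lrat did not overlap between the groups, where 7.91% of all genes tested were lower without overlap. Rbp4, the retinol carrier of plasma, had 5.95, 30.9 and 78.4 CPM in the ADC tumors of mice m335, m372 and m378 and 56.8, 70.1 and 32.2 CPM in the ADN tumors of mice m335, m368 and m350, against 7.33 to 17.9 CPM in normal lungs. All tumors but the ADC tumor of mouse m335 were above every normal lung. Rbp4 rose by 2.06 on the log2 scale with an SE of 0.55 (edgeR adjusted p = 0.0433; 3.68% of all genes were called as higher), but was no longer called on library totals (adjusted p = 0.0544), without the filter (0.0682) or when any library other than the ADC tumor of mouse m335 was left out (0.0688 to 0.138). The lowest adjusted p over its alternatives was 0.000311.

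Of 12 synthesis genes tested 2 fell and none rose, with a median of 0.02. Aldh1a1, which oxidizes retinaldehyde, had 43.9 to 224 CPM in tumors and 252 to 495 CPM in normal lungs (-1.92 ± 0.39, edgeR adjusted p = 0.0146). It was no longer called when the normal lung of mouse m335 was left out (adjusted p = 0.0569), nor when a library of mouse m378 was, either its normal lung (0.0592) or its tumor (0.061, the highest over all alternatives; the lowest was 8.47e-06). Its relative Aldh1a2 had 4.43 to 16.1 CPM in tumors and 17.6 to 33.3 CPM in normal lungs (-1.29 ± 0.38, adjusted p = 0.065), below the lung of the same mouse in 6 of 6 tumors but not called. Its adjusted p was 0.0228 when the ADC tumor of mouse m335 was left out, and without the mouse block 0.0209, in a range over all alternatives of 0.0105 to 0.202. Without that tumor 3377 genes were called, and without the block 2242, against 1759 in the main fit. Aldh1a3 was under 2 CPM in every library (-0.88 ± 0.94, adjusted p = 0.617). Rdh10, which oxidizes retinol, gave 0.46 ± 0.36 (adjusted p = 0.478), and Dhrs3, which reduces retinaldehyde back to retinol, gave -0.03 ± 0.26 (adjusted p = 0.953).

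Cyp26b1, which breaks down retinoic acid, was the 1 gene of its list that passed the filter. It had 16.7, 18.8 and 16.9 CPM in the ADC tumors of mice m335, m372 and m378 and 17.2, 19.6 and 2.75 CPM in the ADN tumors of mice m335, m368 and m350. Against these stood 358, 81.9, 15.2, 157 and 226 CPM in the normal lungs of mice m335, m368, m350, m372 and m378. Normal lungs differed widely among themselves, and that of mouse m350 lay below 5 tumors, though not below the tumor of the same mouse. The gene fell by 3.27 on the log2 scale with an SE of 0.35 (edgeR adjusted p = 0.000968), in 6 of 6 tumors against their own lung. Cyp26a1, the other enzyme named, had 3 counts in all tumors and 5 in all normal lungs.

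Among the 10 partners and coregulators tested, 1 fell and none rose, with a median of 0.03. Rxra, the main partner of the receptors, had 51.4 to 140 CPM in tumors and 109 to 132 CPM in normal lungs (-0.38 ± 0.22, edgeR adjusted p = 0.311), and Rxrb gave -0.08 ± 0.19 (adjusted p = 0.846; 95% interval -0.51 to 0.36). Of 5 tested genes among 18 other class C receptors, Gprc6a, a receptor for basic amino acids, fell by 3.46 with an SE of 0.90 (adjusted p = 0.0399), at 0 to 0.357 CPM in tumors and 0.318 to 0.835 CPM in normal lungs. The call of Gprc6a was lost under 9 of 16 alternatives, and the median of the 5 genes was -2.07. The genes called on these lists and on the list of targets but outside the rule for naming were Adh1, Tgm2 and Ncoa3, named after their values were seen.

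Listed targets were the list with the most calls: of 18 tested, 14 fell and none rose, with a median of -1.79 (7.91% of all genes tested fell). They include developmental genes known to respond to retinoic acid in embryos. Cyp26b1, Lrat and Dhrs3 stand on this list as well as on those above, and Dhrs3 was not called (-0.03 ± 0.26). Meis1 and Meis2, homeodomain partners of Hox proteins, did not overlap between groups, where 7.91% of all genes tested were lower without overlap. Meis1 had 4.18 to 9.91 CPM in tumors and 29.0 to 41.8 CPM in normal lungs (-2.49 ± 0.23, edgeR adjusted p = 0.000723). Meis2 had 5.92 to 10.7 CPM in tumors and 22.5 to 25.7 CPM in normal lungs (-1.64 ± 0.19, adjusted p = 0.00117). Rarres2, which encodes the chemoattractant chemerin, had 28.2 to 146 CPM in tumors and 120 to 728 CPM in normal lungs (-2.21 ± 0.25, adjusted p = 0.00116), with the highest value of each group in mouse m335. It overlaps Lrrc61 on the opposite strand.

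The 6 Hox genes named, which encode patterning factors of the embryo, fell in tumors. They were named because they were called in this comparison, so that choice fixed their change in advance. The target list holds further Hox genes that are not named here. Hoxb5 had 0.107 to 3.85 CPM in tumors and 12.2 to 19.5 CPM in normal lungs (-2.92 ± 0.66, edgeR adjusted p = 0.0234), and Hoxb3 had 1.54 to 3.82 CPM in tumors and 5.44 to 9.74 CPM in normal lungs (-1.87 ± 0.31, adjusted p = 0.00552). Hoxb2 gave -1.79 ± 0.32 (adjusted p = 0.00839), Hoxa3 -1.80 ± 0.37 (0.0147) and Hoxa4 -1.93 ± 0.41 (0.0169). Hoxa5, a factor of the lung mesenchyme in mouse embryos, had 25.4 CPM in the ADN tumor of mouse m368, within the range of the normal lungs (20.4 to 33.3 CPM), and 5.45 to 12.2 CPM in the other tumors. It fell by 1.38 with an SE of 0.30 (adjusted p = 0.02), a call lost without the mouse block (-1.20, adjusted p = 0.0548; 0.000525 to 0.0813 over all alternatives). The calls of Hoxb2 and Hoxb3 held under all 17 alternatives, whereas those of Hoxa3, Hoxa4, Hoxa5 and Hoxb5 were lost under 5, 6, 8 and 5 of them. Hoxa3 and Hoxb5 overlap antisense transcripts of the count table (Hoxaas2 and Hoxaas3, and Hoxb5os).

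**Figure D4:**
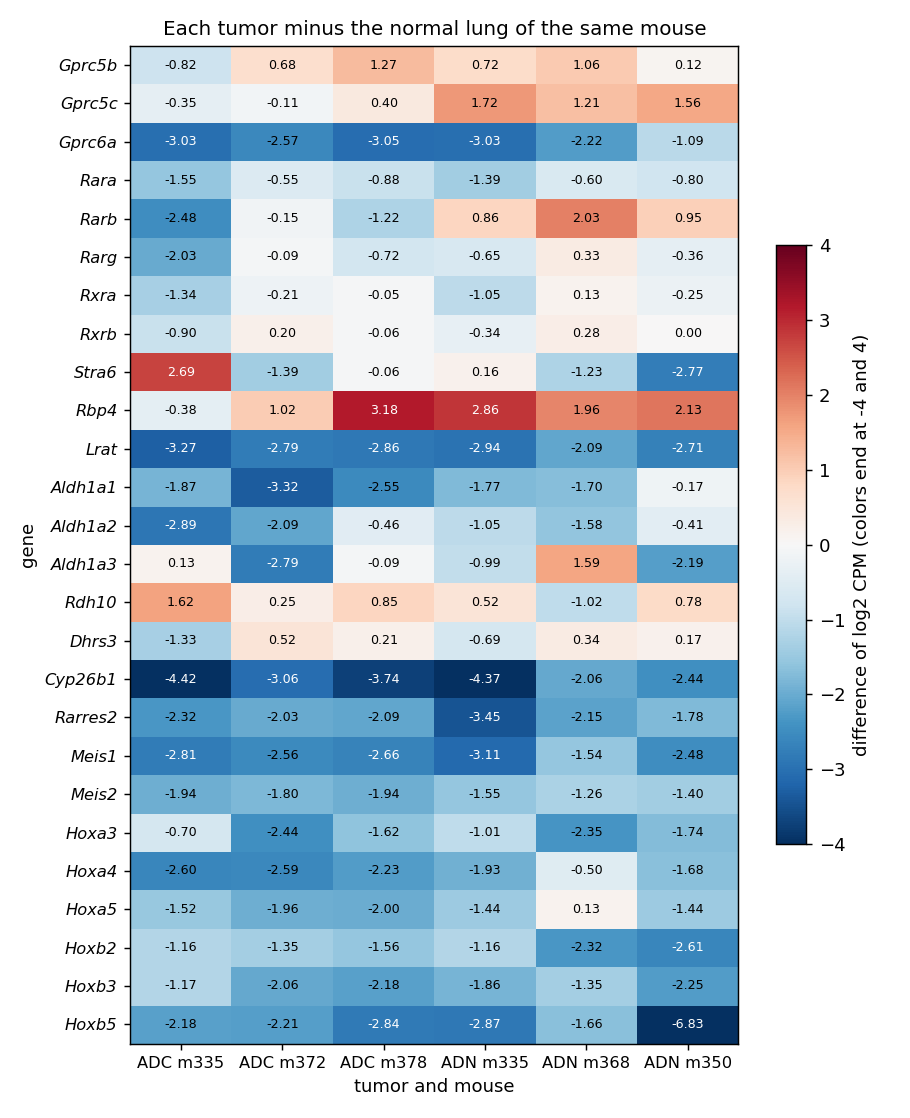
Difference of log2 CPM between each tumor (columns, ADC then ADN) and the normal lung of the same mouse for the members tested and the named pathway genes (rows); blue is lower and red higher in the tumor, and both tumors of mouse m335 share its lung. Rara is negative in 6 of 6 tumors (-0.55 to -1.55), and Gprc5c is 1.21 to 1.72 in the ADN tumors.

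Between tumor kinds, none of the named pathway genes was called in edgeR. Against the normal lungs that both kinds share, Lrat gave -2.93 ± 0.25 in ADC and -2.55 ± 0.25 in ADN tumors, Cyp26b1 -3.59 ± 0.46 in ADC and -2.92 ± 0.47 in ADN tumors, and Meis1 -2.58 ± 0.32 in ADC and -2.40 ± 0.33 in ADN tumors. The differences of ADC and ADN tumors for these 3 genes were -0.38 ± 0.30, -0.67 ± 0.57 and -0.18 ± 0.40 (edgeR adjusted p = 0.827, 0.832 and 0.937).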

How the data were processed

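Poly-A RNA of 6 tumors and 5 normal lungs with an RNA integrity number of at least 7 was sequenced on an Ion Proton instrument from Ion Total RNA-Seq libraries, per the labels' protocols. STAR 2.4.1d, Bowtie2 2.1.0, Partek and build mm10 are named in the submitters' processing notes; what each did, the annotation and any strand setting are not stated there. The authors deposited expected counts (estimated, not normalized) for 36285 transcripts in 11 columns, all of which were used. Transcripts were summed to 24515 genes, of which 78.4% to 86.2% per library were whole within 0.01, and rounded. Genes were filtered with filterByExpr (15175 tested, or 15764 with 3 groups), scaled by TMM and fitted with the robust quasi-likelihood model of edgeR 4.0.16 in R 4.3.3, with the mouse as a block, two-sided, with Benjamini-Hochberg adjustment over all genes tested. SEs come from the F statistic and 95% intervals from its degrees of freedom. Transcript starts were fitted likewise, an analysis chosen after seeing the data. Only the fit of tumors against normal lungs was tested on simulated data, which held no mouse effect. Of 200 genes changed by 2 on the log2 scale, 178 were recovered, with 9 false calls. Smaller changes, the fits with 3 groups and the fits of transcript starts were not simulated. The labels name separate mice, and mouse m335 gave 2 tumors.

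Tumors were paired with lungs by the mouse identifier of each label. To check this, each library's deviation from its group mean was correlated between a tumor and its own lung, giving -0.0444 to 0.254, and the own lung ranked first for 2 of 6 tumors. Lengths for per-kilobase levels come from the transcripts of the reference. Intervals of low counts cover counting error only. The members, the 6 pathway lists and the 10 marker lists were chosen with earlier results of these data known. Named were all members, the 15 called pathway genes with the largest change, Rxra, Rxrb, the Cyp26, Aldh1a, Rdh10, Dhrs3 and Rbp4 genes whatever they did, and for each member tested the 3 genes most like it. Some genes of the lists are counted but not reported here by name. Alternatives were no replicate block, DESeq2 size factors, library totals, no filter, a filter of 1 CPM in 3 libraries, the test of DESeq2 1.42.0 and each library left out.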

Additional observations from a re-analysis of the deposited data

Results flagged for a closer look

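In 20 of 60 groups of one gene's libraries checked, the highest or lowest library lay far from the others by Dixon's 95% criterion. Chance meets it for about 1 in 20 groups only where values are independent and Gaussian. The groups here share the same libraries, pool the tumor kinds and hold unlogged CPM, some from very few counts. The number flagged therefore cannot be set against that rate. Among the members, the tumors had 8.39 CPM of Stra6 in the ADC tumor of mouse m335, next to 1.41 CPM in the nearest tumor, and 0.0698 CPM of Gprc5d in the ADN tumor of mouse m368, where all other tumors had 0. In the normal lung of mouse m335, Rara had 105 CPM (nearest normal lung 62.3 CPM) and Rarg 156 CPM (nearest 85.7 CPM).

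The same lung was far from the other normal lungs for Dhrs3 (354 CPM, nearest 197 CPM) and Rarres2 (728 CPM, nearest 163 CPM). The normal lung of mouse m372 stood apart for Aldh1a3 (1.5 CPM, nearest 0.559 CPM), Cyp26a1 (0.136 CPM, nearest 0.0311 CPM), Rdh10 (10.7 CPM, nearest 8.63 CPM) and, as the lowest, Rxra (109 CPM, nearest 126 CPM). The normal lung of mouse m350 was the highest for Hoxa5 (33.3 CPM, nearest 23.2 CPM).

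The ADC tumor of mouse m335 was the highest tumor for Hoxb3 (3.82 CPM, nearest 2.34 CPM) and Rarres2 (146 CPM, nearest 66.5 CPM) and the lowest for Rxrb (53.3 CPM, nearest 76.3 CPM). The ADN tumor of mouse m350 was the highest for Aldh1a1 (224 CPM, nearest 97.1 CPM) and Gprc6a (0.357 CPM, nearest 0.0698 CPM) and the lowest for Cyp26b1 (2.75 CPM, nearest 16.7 CPM). The ADN tumor of mouse m368 was the highest for Aldh1a3 (1.81 CPM, nearest 0.440 CPM), Hoxa4 (3.42 CPM, nearest 1.71 CPM) and Hoxa5 (25.4 CPM, nearest 12.2 CPM).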

How the results depend on the processing

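The direction and call of Rara in tumors against normal lungs, and of Lrat, Cyp26b1, Meis1, Meis2, Rarres2, Hoxb2 and Hoxb3, held under all 17 alternatives. Counts of called genes moved more; the cause was not tested. Tumors against normal lungs gave 1759 genes, 2242 without the replicate block, 3286 by DESeq2 and 917 (without the normal lung of mouse m378) to 3377 (without the ADC tumor of mouse m335) with a library left out. ADN tumors against normal lungs gave 1141 genes, 1836 without the replicate block, 3003 by DESeq2 and 0 (without the ADN tumor of mouse m335) to 1998 (without the ADC tumor of mouse m335) with a library left out. ADC tumors against normal lungs gave 753 genes, 1517 without the replicate block, 1863 by DESeq2 and 71 (without the normal lung of mouse m378) to 1071 with a library left out. ADC against ADN tumors gave 1 gene, 3 without the replicate block, 5 without the filter, 136 by DESeq2 and 0 to 3 with a library left out.

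Signs that turned all belong to differences that were not called. With a library left out, tumors against normal lungs ranged from -0.16 to 0.63 for Rarb (0.29 with all libraries), -0.16 to 0.31 for Dhrs3 and -0.16 to 0.10 for Rxrb. ADN tumors against normal lungs ranged from -0.28 to 0.23 for Rarg. ADC tumors against normal lungs ranged from -0.14 to 1.01 for Gprc5b, -0.30 to 0.18 for Gprc5c and -0.77 to 0.92 for Stra6. ADC against ADN tumors ranged from -0.90 to 0.32 for Gprc5b and -0.29 to 0.18 for Rara. Without the replicate block Stra6 gave 0.87 in tumors against normal lungs and Gprc5c 0.03 in ADC tumors against normal lungs. On library totals Stra6 gave -0.04 in ADC tumors against normal lungs. Of 802 values under alternatives, 714 kept direction and call. Depth limits Gprc5a, Gprc5d and Crabp2, which had at most 19 counts in any library.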
